A study of Homo sapiens with 6 samples.

Results

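Secreted VEGF ligands, their neuropilin co-receptors and the class 3 semaphorins that share those co-receptors were described in T24 cells given vector or active RhoC. The group holds 10 genes, taken by symbol from 58233 rows with an Ensembl identifier: the ligands VEGFA, VEGFB, VEGFC and PGF, the neuropilins NRP1 and NRP2, and the semaphorins SEMA3A, SEMA3C, SEMA3E and SEMA3F. Each symbol matched 1 row in all 6 libraries. The cells are T24, an established human bladder carcinoma line, made by lentiviral transduction and puromycin selection, and they stably carried either the vector (VEC, n = 3 libraries) or RhoC with the constitutively active mutation Q63E (Q63E, n = 3 libraries). RhoC is a small GTPase that controls the actin cytoskeleton. VEC cells express endogenous RHOC, and none of the 6 libraries came from cells given unmutated RhoC. The mutation, the higher RHOC level and differences between the lines therefore cannot be told apart. The labels do not say whether each line was a pool or a clone, nor whether the replicates were separate cultures, so all p-values measure the spread between these libraries only, which may be technical.

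VEGF ligands are secreted dimers that act on the receptor tyrosine kinases FLT1, KDR and FLT4 of blood and lymphatic vessels. Neuropilins are transmembrane co-receptors with short cytoplasmic tails. They bind particular VEGF forms as well as class 3 semaphorins, and pair with VEGF receptors for the former and with plexins for the latter. Class 3 semaphorins are secreted guidance cues, first known for repelling growing axons, which in many settings also restrain vessel growth. Carcinoma cells commonly secrete VEGFA, whose gene is a textbook target of hypoxia-inducible factors.

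Values are taken as FPKM, fragment counts scaled to transcript length and library size, since neither the headers nor the labels name the unit. If that unit is right, they are scaled by length, and every comparison between genes given here rests on it. The values of a library summed to between 726929 and 769026. Correlations of log2 values across genes were 0.968 to 0.976 for libraries of the same group and 0.953 to 0.958 otherwise. RHOC, the transduced gene, had values of 231.89, 217.6 and 231.97 in VEC and of 1770.09, 1725.68 and 1743.54 in Q63E, as the labels state, with transduced and endogenous RNA in 1 row. Keratins of simple epithelia were abundant in these cells, with KRT7 at 1019.45 to 1048.05 in VEC, whereas KRT5, CDH1 and UPK3A, an uroplakin of differentiated urothelium, were listed at 0 in all 6 libraries.

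Of the 10 genes, 9 had a mean of at least 1 FPKM over the 6 libraries and were tested, and SEMA3F, with a mean of 0.627, was not. In limma with Benjamini-Hochberg adjustment over 13346 genes, 6 of these 9 passed the threshold of 0.05: VEGFA, SEMA3C and SEMA3E were higher in Q63E, and VEGFC, NRP2 and SEMA3A were lower. Over all genes tested 25.3% passed, 11.3% in the higher and 14% in the lower direction. For 7 of the 9 genes every Q63E library lay on the same side of every VEC library, 3 above and 4 below. The same was true of 43.9% of all genes tested, 21.1% above and 22.8% below. The median log2 fold change of the 9 was −0.26, and that of all genes tested was −0.002. The calls were not equally firm: those of VEGFC and SEMA3E held whichever library was left out, while in such fits with 5 libraries between 2 and 4 of the genes passed.

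**Figure D1:**
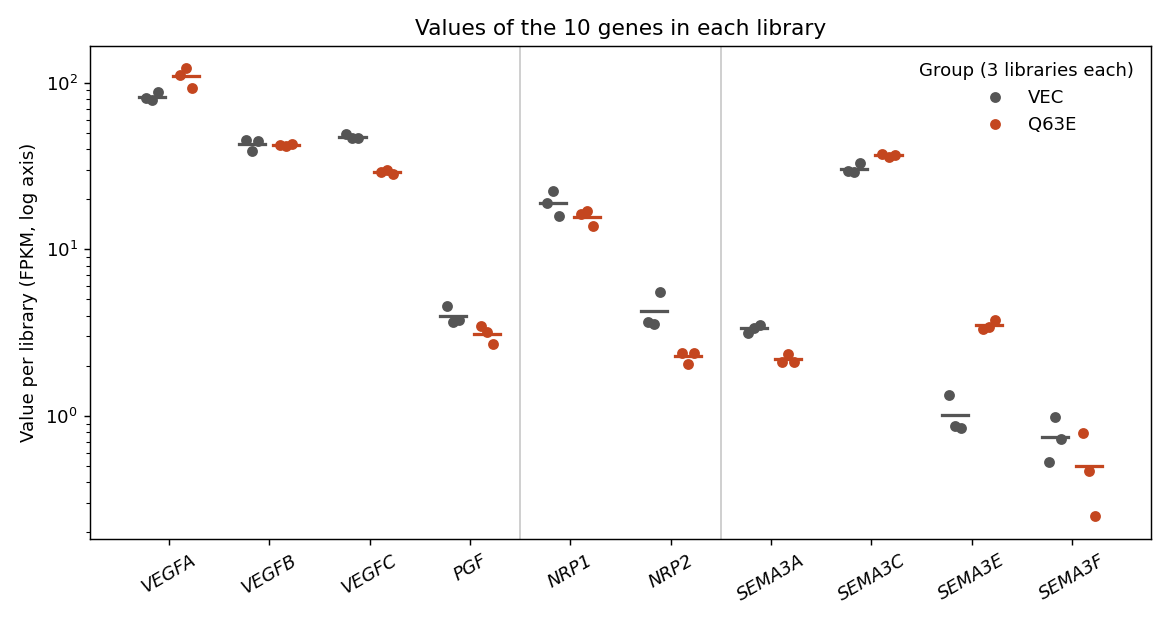
Value of each of the 10 genes in each library (FPKM, log axis), with points for the 3 libraries of VEC (grey) and of Q63E (red) and a line at each group mean. VEGFA is the highest in both groups, VEGFC lies lower and SEMA3E higher in Q63E without overlap, and VEGFB overlaps.

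The promoter windows of VEGFC and SEMA3E are shown because these are the genes whose difference held in every alternative fit, in opposite directions. Each is the 250 bases before the gene start from RefSeq on GRCh38.p14, read on the gene's strand, 5′ to 3′. Both genes lie on the minus strand, at chr4:176792923-176793172 for the VEGFC window and at chr7:83649140-83649389 for that of SEMA3E, for which RefSeq gives 2 starts and the upstream start is shown. Capitals mark the hypoxia-inducible factor core, ACGTG or GCGTG on either strand, and the GC box, GGGCGG on either strand.
VEGFC: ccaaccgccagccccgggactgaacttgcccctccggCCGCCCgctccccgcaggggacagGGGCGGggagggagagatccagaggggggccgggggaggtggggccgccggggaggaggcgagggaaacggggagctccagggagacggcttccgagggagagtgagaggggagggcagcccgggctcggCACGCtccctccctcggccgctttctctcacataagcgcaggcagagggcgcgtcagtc
SEMA3E: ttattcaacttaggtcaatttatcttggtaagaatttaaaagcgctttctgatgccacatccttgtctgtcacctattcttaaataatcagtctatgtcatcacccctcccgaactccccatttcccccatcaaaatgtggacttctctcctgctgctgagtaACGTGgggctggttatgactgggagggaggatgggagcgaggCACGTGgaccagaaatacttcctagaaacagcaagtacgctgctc

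The windows differ in composition: that of VEGFC is 74.0% G and C with 22 CpG dinucleotides, and that of SEMA3E 46.4% with 6, beside medians of 58% and 11 over 35116 RefSeq promoter windows of this length. VEGFC holds 2 GC boxes, starting 213 and 189 bases before the RefSeq start, and 1 core at 59 bases. GENCODE begins both genes further downstream, VEGFC at position 176792727 and SEMA3E at 83649113. The SEMA3E window shown holds no GC box, a core at 87 bases, and the palindrome CACGTG, which reads as a core on both strands at 45 and 44 bases. The window of the downstream SEMA3E start, not shown, is 34.8% G and C with 1 CpG, and holds 0 cores and 0 GC boxes. The bases just after that downstream start are in 2 GENCODE transcripts, and those just after either start shown are in 0. Of all such windows 43.2% hold the 5-letter core and 42.6% the GC box, so a match describes the letters only. The AP-1 motif TGANTCA, the TEAD motif GGAATG and the CArG box, searched on both strands, were in neither window shown. They occur in 6.57%, 11.9% and 1.16% of all windows. RefSeq windows were matched for 7 of the 10 genes, and VEGFA, NRP1 and SEMA3A were not among them.

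Among the ligands, VEGFA rose and VEGFC fell, while VEGFB and PGF did not pass the test. VEGFA (ENSG00000112715, chromosome 6 from 43770184 to 43786487 on the plus strand of GRCh38) encodes the main growth and permeability factor of blood vessel endothelium. It had values of 80.54, 78.67 and 88.11 in VEC and of 111.99, 122.2 and 93.74 in Q63E. Every Q63E library lay above every VEC library, and Q63E replicate 3 lay nearest to VEC. The means were 82.4 ± 5.0 and 109 ± 14.4 (SD, n = 3), a ratio of 1.33, and the log2 fold change was 0.40 (SE 0.1, adjusted p = 0.0305 in limma). Among fits with 5 libraries the call held only without Q63E replicate 3 (log2 fold change 0.50, adjusted p = 0.00962), and was lost without any of VEC replicates 1, 2 and 3 and Q63E replicates 1 and 2 (adjusted p up to 0.0936). It was also lost with no filter on low values (adjusted p = 0.0746) and without limma's trend (adjusted p = 0.0546). In a bulk culture, more expressing cells and more RNA per cell cannot be told apart. The gene-level values join the 32 transcripts that GENCODE lists for VEGFA, so its heparin-binding and freely diffusing isoforms are not separated. A non-coding gene on the opposite strand, AL136131.3, overlaps VEGFA and had values of 4.49, 68.6 and 27.02 in VEC and of 0, 57.13 and 39.77 in Q63E. The sources used here do not state a strand for the values, so reads may be shared between the 2 rows, and their part in the VEGFA difference was not tested.

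VEGFC (ENSG00000150630, chromosome 4 from 176683538 to 176792727, minus strand), the growth factor of lymphatic endothelium, had values of 49.01, 46.73 and 46.57 in VEC and of 29.26, 29.96 and 28.51 in Q63E. All Q63E libraries were below all VEC libraries by a gap many times the range within either group. The mean fell from 47.4 ± 1.36 to 29.2 ± 0.725 (SD, n = 3), a log2 fold change of −0.68 (SE 0.044, adjusted p = 0.000231 in limma), and all 13 alternative fits gave between −0.70 and −0.66. Its 50 nearest tested genes had a median log2 fold change of 0.02.

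VEGFB (ENSG00000173511, chromosome 11 from 64234538 to 64238793, plus strand), a ligand of FLT1 and NRP1 that is linked to heart and fat tissue, had values of 45.13, 39.2 and 44.63 in VEC and of 42.05, 41.88 and 42.72 in Q63E. The Q63E values lay inside the VEC range. Its log2 fold change was −0.02, with a 95% interval from −0.17 to 0.12 (adjusted p = 0.817 in limma). PGF (placental growth factor, ENSG00000119630, chromosome 14 from 74941834 to 74955784, minus strand), another FLT1 ligand, had values of 4.55, 3.66 and 3.79 in VEC and of 3.47, 3.18 and 2.72 in Q63E. Its groups did not overlap, but the difference did not pass, at −0.28 with a 95% interval from −0.58 to 0.02 (adjusted p = 0.156).

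The summed FPKM of the 4 ligands was 179, 168 and 183 in VEC and 187, 197 and 168 in Q63E, and the groups overlapped (exact two-sided permutation p = 0.5, adjusted p = 0.542 over 13 such values). The makeup of that sum differed more than its size. VEGFA held 46.6% ± 1.6 of it in VEC and 59.3% ± 3.09 in Q63E (SD, n = 3), while VEGFC held 25.4% to 27.8% in VEC and 15.2% to 17% in Q63E. VEGFA was 1.64, 1.68 and 1.89 times VEGFC in VEC and 3.83, 4.08 and 3.29 times in Q63E, with no overlap. For both shares and for this ratio the exact two-sided permutation p was 0.1, the smallest that 3 against 3 libraries allow, and 0.163 after adjustment over the 13 values.

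**Figure D2:**
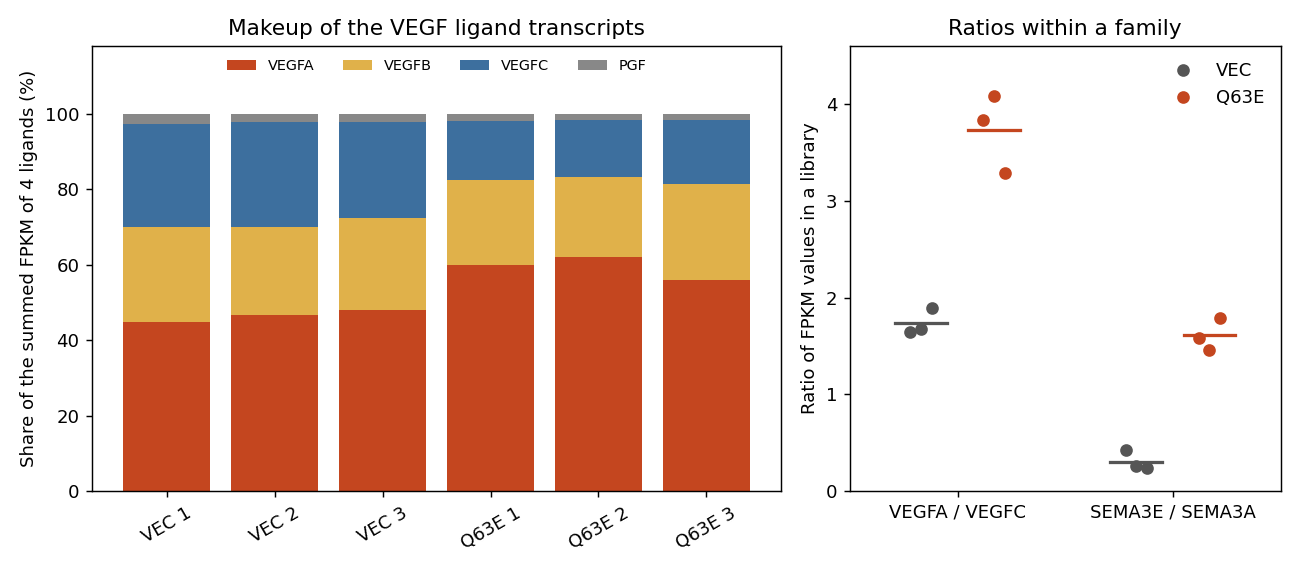
Left, share of the summed FPKM of 4 VEGF ligands held by each ligand, per library. Right, ratios of VEGFA to VEGFC and of SEMA3E to SEMA3A in each library, with lines at the group means. VEGFA holds 44.9% to 48.1% in VEC and 55.9% to 62.0% in Q63E, and both ratios are higher in all Q63E libraries.

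Transcripts of the ligands' kinase receptors were almost absent from these libraries. FLT1 and KDR, the receptors of VEGFA, did not exceed 0.03 in any library and FLT4, the receptor of VEGFC, did not exceed 0.02. VEGFD, the close relative of VEGFC, was listed at 0 in 5 of the 6 libraries. Of these 4 listed genes 0 reached the minimum for a test. The defining endothelial markers PECAM1 and VWF had highest values of 0.04 and 0.01. The summed level of 10 endothelial markers ran from 19.4 to 21.6 in VEC and from 6.37 to 8.21 in Q63E. Most of that sum was EGFL7, a secreted factor first described in endothelium, which fell from 16.9 ± 1.47 to 3.89 ± 0.417 (−1.87 on the log2 scale, adjusted p = 0.000112 in limma).

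The neuropilins were present without those kinases. NRP1 (ENSG00000099250, chromosome 10 from 33177492 to 33336262, minus strand), the co-receptor of VEGFA and SEMA3A, had values of 18.94, 22.48 and 15.87 in VEC and of 16.39, 16.95 and 13.75 in Q63E. The groups overlapped, and the log2 fold change of −0.26 did not pass, with a 95% interval from −0.59 to 0.07 (adjusted p = 0.214). NRP1 lies in a stretch of chromosome 10 where neighbouring genes were lower in Q63E: its 50 nearest tested genes had a median of −0.31, and with that median subtracted NRP1 stood at 0.06 (adjusted p = 0.791).

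NRP2 (ENSG00000118257, chromosome 2 from 205681990 to 205798133, plus strand), the co-receptor of VEGFC and SEMA3F, had values of 3.64, 3.54 and 5.53 in VEC and of 2.4, 2.04 and 2.39 in Q63E. All Q63E libraries lay below all VEC libraries, and VEC replicate 3 lay well above the other two. The mean fell from 4.24 ± 1.12 to 2.28 ± 0.205 (SD, n = 3), a log2 fold change of −0.66 (SE 0.169, adjusted p = 0.0327). The call was kept without VEC replicate 2 and lost without VEC replicate 1 or 3 or Q63E replicate 1, 2 or 3 (adjusted p = 0.0451 to 0.0929), the log2 fold change being −0.49 without VEC replicate 3. With no filter on low values it was lost too (adjusted p = 0.0909). The sum of NRP1 and NRP2 was 22.6, 26.0 and 21.4 in VEC and 18.8, 19.0 and 16.1 in Q63E, with no overlap (permutation p = 0.1, exact and two-sided, adjusted p = 0.163), and NRP1 held 74.2% to 89.3% of it in every library.

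**Figure D3:**
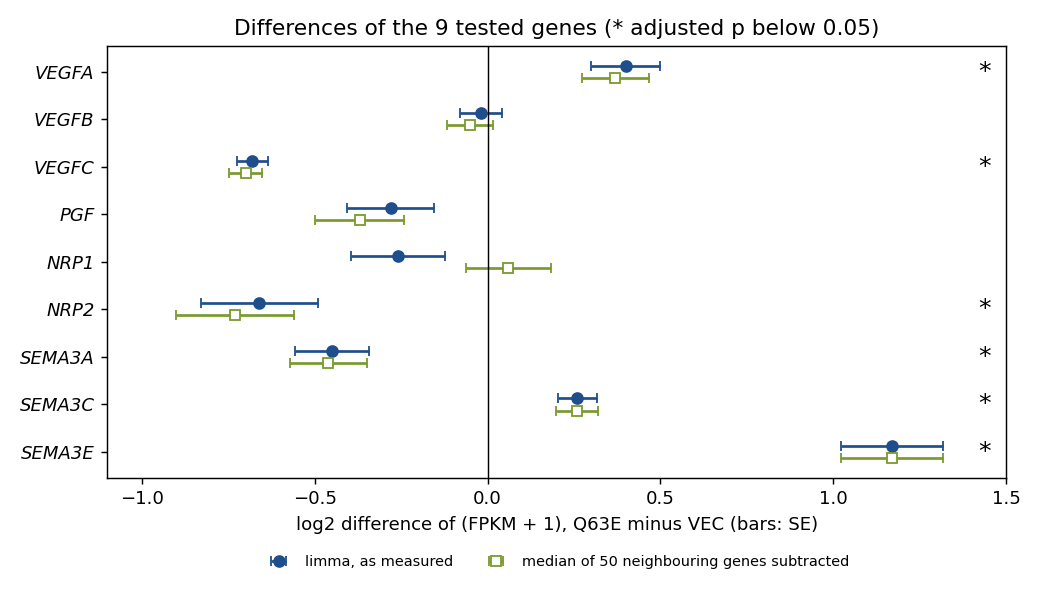
Difference between Q63E and VEC for the 9 tested genes on the log2(FPKM + 1) scale, with SE bars from limma over 3 libraries per group, as measured (filled) and with the median of 50 neighbouring genes subtracted (open). NRP1 moves from −0.26 to 0.06 under the subtraction, and the other genes move by at most 0.09.

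The 3 tested class 3 semaphorins all passed, with SEMA3E and SEMA3C higher and SEMA3A lower in Q63E. SEMA3E (ENSG00000170381, chromosome 7 from 83363238 to 83649113, minus strand) differs from its relatives in that it signals through plexin D1 without needing a neuropilin. It had values of 1.33, 0.87 and 0.85 in VEC and of 3.34, 3.41 and 3.78 in Q63E. The lowest Q63E library was more than 2 times the highest VEC library. The mean rose 3.45-fold, from 1.02 ± 0.272 to 3.51 ± 0.236 (SD, n = 3), which was 1.17 on the log2 scale (SE 0.147, adjusted p = 0.00243). This was the largest change among the 9 tested genes, and it passed in all 12 alternatives in which SEMA3E could be tested (adjusted p = 0.00226 to 0.0198). The fold is understated on the log2(value + 1) scale, and with a pseudocount of 0.1 it was 1.72. SEMA3E remained a low transcript, at the 12.5th percentile of the genes tested by mean value.

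SEMA3C (ENSG00000075223, chromosome 7 from 80742538 to 80922359, minus strand), which binds both neuropilins and is secreted by many carcinomas, was the most abundant class 3 semaphorin. It had values of 29.69, 29.04 and 32.88 in VEC and of 37.25, 36.03 and 36.98 in Q63E. Every Q63E library lay above every VEC library. The mean rose from 30.5 ± 2.06 to 36.8 ± 0.641 (SD, n = 3), a log2 fold change of 0.26 (SE 0.057, adjusted p = 0.0189). The call was lost without VEC replicate 1 or 2 or Q63E replicate 1 or 3 (adjusted p up to 0.0640).

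SEMA3A (ENSG00000075213, chromosome 7 from 83955777 to 84492724, minus strand), the NRP1 ligand that repels axons and restrains endothelial cells, had values of 3.16, 3.39 and 3.51 in VEC and of 2.12, 2.34 and 2.11 in Q63E. All Q63E libraries were below all VEC libraries. The mean fell from 3.35 ± 0.178 to 2.19 ± 0.130 (SD, n = 3), a log2 fold change of −0.45 (SE 0.108, adjusted p = 0.0265). The call was lost without VEC replicate 2 or 3 or Q63E replicate 1 or 3 (adjusted p up to 0.0716) and with no filter on low values (adjusted p = 0.0858). SEMA3F (ENSG00000001617, chromosome 3 from 50155045 to 50189075, plus strand), an NRP2 ligand known as a candidate tumour suppressor, had values of 0.53, 0.99 and 0.73 in VEC and of 0.79, 0.47 and 0.25 in Q63E. The groups overlapped at this low level, and with no filter on low values the log2 fold change was −0.23 (adjusted p = 0.560).

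SEMA3C, SEMA3E, SEMA3A and SEMA3D lie on the same arm of chromosome 7, with 307 kb between SEMA3E and SEMA3A and 503 kb between SEMA3A and SEMA3D. SEMA3E and SEMA3A moved in opposite directions although they are neighbours. SEMA3E stood at 0.421, 0.257 and 0.242 times SEMA3A in VEC and at 1.58, 1.46 and 1.79 times in Q63E, so that the order of the pair was reversed in every library (exact two-sided permutation p = 0.1, the smallest possible, adjusted p = 0.163). Within 5 Mb of SEMA3E on either side, 20 genes were tested, and of the 17 besides these 3 members 2 passed, with a median log2 fold change of 0.05. The 50 nearest genes of SEMA3C, SEMA3E and SEMA3A had medians between 0.00 and 0.02.

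**Figure D4:**
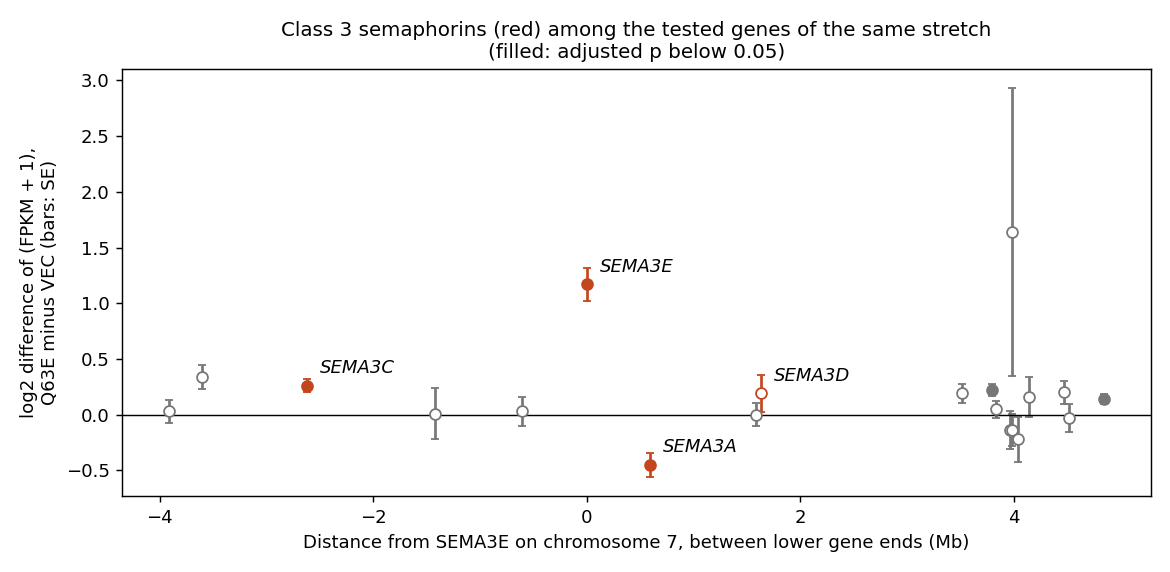
Difference between Q63E and VEC on the log2(FPKM + 1) scale (points, with SE bars from 3 libraries per group) for the 20 tested genes within 5 Mb of SEMA3E, against distance between lower gene ends (Mb). SEMA3E (1.17) and SEMA3A (−0.45) lie next to each other on opposite sides of 0, and the wide bar near 4 Mb belongs to a gene with variable values.

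The sum of the 4 class 3 semaphorins was 34.7, 34.3 and 38.0 in VEC and 43.5, 42.2 and 43.1 in Q63E, with no overlap (exact two-sided permutation p = 0.1, adjusted p = 0.163). SEMA3C held 85.6% of the sum in both groups. Of the other 3 genes of the class 2 could be tested and 0 passed: SEMA3D went from 2.39 ± 0.330 to 2.9 ± 0.718 (adjusted p = 0.460), and SEMA3B from 0.78 ± 0.125 to 1.25 ± 0.122 (adjusted p = 0.173, and 0.0287 without limma's trend). SEMA3B lies in a part of chromosome 3 where the 50 nearest genes had a median of 0.34, equal to its own log2 fold change of 0.34.

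By mean FPKM the order in VEC was VEGFA, VEGFC, VEGFB, SEMA3C, NRP1, NRP2, PGF, SEMA3A, SEMA3E and SEMA3F. The ranges of NRP2 and PGF overlapped, as did those of SEMA3E and SEMA3F, and the other neighbours in the order were separate. In Q63E the order was VEGFA, VEGFB, SEMA3C, VEGFC, NRP1, SEMA3E, PGF, NRP2, SEMA3A and SEMA3F, with overlap between SEMA3E and PGF and between NRP2 and SEMA3A. VEGFC went from the second to the fourth place and SEMA3E from the ninth to the sixth. VEGFA stood at the 91.8th percentile of all genes tested.

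Plexins carry the semaphorin signal into the cell, and several of them act on small GTPases. Of 9 plexin genes 7 were tested, 3 rose and 0 fell, with a median log2 fold change of 0.03. Over all genes tested 11.3% rose and 14% fell, with a median of −0.002, and the counts of the lists that follow stand beside the same shares. PLXNB3, a receptor of SEMA5A, rose from 34.6 ± 3.02 to 48.2 ± 3.24 (0.47 on the log2 scale, adjusted p = 0.00716), a call that held in all 13 alternatives. PLXNA3, a neuropilin partner for SEMA3A and SEMA3F, rose from 49.4 ± 2.45 to 64.7 ± 9.41 (0.37 on the log2 scale, adjusted p = 0.0464). Among fits with 5 libraries it passed only without Q63E replicate 3 and was lost without any of the other 5 (adjusted p up to 0.133), and with its neighbours' median of 0.07 subtracted it did not pass (adjusted p = 0.113). Nor did it pass with no filter on low values (adjusted p = 0.105) or without limma's trend (adjusted p = 0.0740). PLXNB1, which binds RhoGEFs, rose from 18.4 ± 2.32 to 23.7 ± 1.06 (0.36 on the log2 scale, adjusted p = 0.0378). It lies on chromosome 3 among genes with a median of 0.37, and with that subtracted it stood at −0.01 (adjusted p = 0.953). The call was also lost without VEC replicate 2 or Q63E replicate 1, 2 or 3, with no filter on low values (adjusted p = 0.0826) and without limma's trend (adjusted p = 0.0566).

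Of 13 semaphorins of classes 4 to 7, most of them bound to the membrane, 8 were tested, 0 rose and 1 fell. SEMA6B had values of 5.68, 4.96 and 4.99 in VEC and of 1.5, 1.53 and 2.29 in Q63E, a log2 fold change of −1.17 (SE 0.145, adjusted p = 0.00231) that passed in every alternative. SEMA4B, the most abundant, went from 148 ± 3.67 to 157 ± 15.9 (adjusted p = 0.434), and SEMA7A, a membrane-anchored ligand of integrins, from 45.0 ± 0.569 to 41.0 ± 1.74 (adjusted p = 0.0743, and 0.0259 with its neighbours' median of 0.06 subtracted).

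Of 20 listed partners of neuropilins and plexins 14 were tested, 1 rose and 4 fell, with a median of −0.09. L1CAM, an adhesion molecule that joins NRP1 in the SEMA3A receptor, had values of 84.7, 80.72 and 80.67 in VEC and of 198.95, 210.02 and 182.54 in Q63E (log2 fold change 1.25, SE 0.057, adjusted p = 6.9e-05). The collapsin response mediator genes DPYSL3 and CRMP1, which act downstream of SEMA3A in neurons, fell from 38.0 ± 0.997 to 26.2 ± 0.682 (adjusted p = 0.000604) and from 6.77 ± 0.512 to 4.79 ± 0.421 (adjusted p = 0.0216). CRMP1 lies on chromosome 4 among genes with a median of −0.51, and with that subtracted it stood at 0.09 (adjusted p = 0.571). Its call was also lost without VEC replicate 1 or 3 or Q63E replicate 2 or 3, and with no filter on low values (adjusted p = 0.0556). DPYSL2 of the same family, named although the rule did not pick it, did not pass: it went from 22.9 ± 0.674 to 25.5 ± 0.984 (0.15 on the log2 scale, adjusted p = 0.0796), and with its neighbours' median of −0.38 subtracted it stood at 0.53 (adjusted p = 0.00212). MICAL2, of a family of actin-oxidising enzymes, fell from 85.9 ± 2.41 to 75.1 ± 2.62 (adjusted p = 0.0190), a call lost without VEC replicate 2 or 3 or Q63E replicate 1 or 3 and without limma's trend (adjusted p = 0.0528). The remaining fall, that of GIPC1, which binds the NRP1 tail, named although the rule did not pick it, was from 81.1 ± 2.43 to 73.0 ± 1.53 (adjusted p = 0.0340), and with its neighbours' median of −0.12 subtracted it did not pass (−0.03, adjusted p = 0.682).

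Proprotein convertases cut VEGFC and class 3 semaphorins, which changes their activity. Of 7 processing genes 5 were tested, 0 rose and 1 fell, with a median of −0.21. PCSK7 fell from 20.9 ± 1.27 to 14.9 ± 1.8 (−0.46 on the log2 scale, adjusted p = 0.0141), and without Q63E replicate 3 the adjusted p was 0.0512. FURIN, the main convertase of this group, went from 22.4 ± 2.61 to 20.9 ± 0.684 (adjusted p = 0.482).

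All 9 genes listed for oxygen sensing and VEGFA control were tested, of which 4 rose and 2 fell, against 11.3% and 14% of all genes, with a median of 0.27. The hypoxia-inducible factor genes HIF1A and EPAS1 moved in opposite directions. HIF1A had values of 59.95, 66.99 and 57.72 in VEC and of 38.85, 34.07 and 42.44 in Q63E (log2 fold change −0.67, SE 0.092, adjusted p = 0.00347). EPAS1, which encodes HIF-2 alpha, had values of 31.97, 32.71 and 34.4 in VEC and of 58.43, 62.91 and 54.16 in Q63E (log2 fold change 0.80, SE 0.064, adjusted p = 0.000464). Neither pair of groups overlapped, both calls held in all 13 alternatives, and the gene with the higher value was HIF1A in every VEC library and EPAS1 in every Q63E library. SP1, which binds GC boxes, rose from 21.0 ± 1.04 to 25.7 ± 0.881 (adjusted p = 0.0142, and 0.0523 without Q63E replicate 1). EGLN2, a prolyl hydroxylase that marks these factors for destruction, fell from between 37.6 and 39.5 in VEC to between 29.55 and 32.85 in Q63E (adjusted p = 0.0113). The other rises, named outside the rule, were those of HIF1AN (17.2 ± 0.802 to 21.0 ± 1.15, adjusted p = 0.0223) and VHL (17.7 ± 0.874 to 21.5 ± 1.20, adjusted p = 0.0246). VHL lies on chromosome 3 among genes with a median of 0.37, and with that subtracted it did not pass (−0.10, adjusted p = 0.446). Whether these levels bear on VEGFA was not tested.

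Of 11 other angiogenic factors 7 were tested, 2 rose and 1 fell, with a median of 0.09. PDGFB, which recruits the pericytes of vessels, rose from 32.2 ± 1.5 to 43.8 ± 2.31 (0.43 on the log2 scale, adjusted p = 0.00302), although its 50 nearest genes on chromosome 22 had a median of −0.56. PDGFC rose from 20.9 ± 1.29 to 25.2 ± 1.19 (adjusted p = 0.0283), a call lost without VEC replicate 2 or 3 or Q63E replicate 1 or 2 and with no filter on low values (adjusted p = 0.0514). FGF2 fell from 11.3 ± 0.941 to 7.41 ± 0.459 (−0.55 on the log2 scale, adjusted p = 0.00530). It lies on chromosome 4 among genes with a median of −0.41, and with that subtracted it did not pass (−0.14, adjusted p = 0.309).

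**Figure D5:**
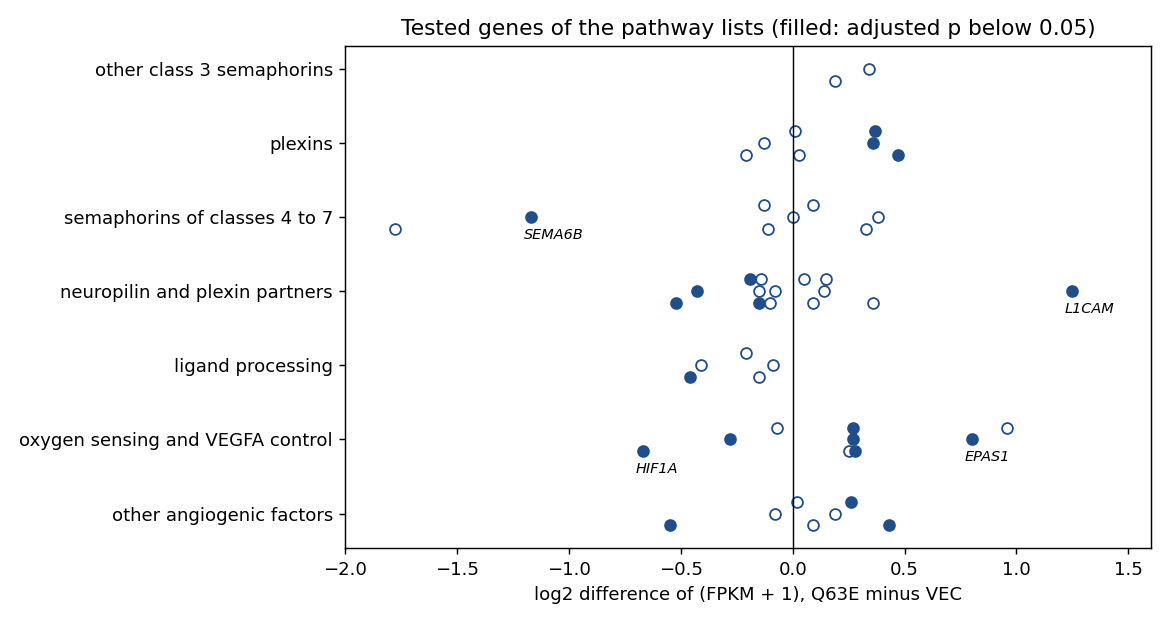
Difference between Q63E and VEC on the log2(FPKM + 1) scale for each tested gene of 7 pathway lists, 3 libraries per group, filled where the adjusted p was below 0.05. L1CAM (1.25) and EPAS1 (0.80) lie highest among the filled points, and SEMA6B (−1.17) and HIF1A (−0.67) lowest.

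Markers of other cell types were low. Of 6 leukocyte markers 3 were listed at 0 in all libraries, and their summed level was 0.74 to 1.2 in VEC and 0.35 to 0.45 in Q63E, led by LST1 and CD14. The 6 fibroblast markers summed to 1.9 to 2.33 in VEC and 2.44 to 3.7 in Q63E, led by COL1A1 (1.3 ± 0.155 and 2.21 ± 0.561, adjusted p = 0.105, and 0.048 without Q63E replicate 1). COL1A2 was next, with a mean of 0.47 ± 0.265 in VEC and 0.233 ± 0.0681 in Q63E. ROBO4, the endothelial marker with the next highest mean after EGFL7, went from 2.05 ± 0.516 to 2.24 ± 0.176 (adjusted p = 0.693). Of 12 urothelial and epithelial markers 4 were tested and 3 rose, all keratins: KRT8 from 581 ± 2.12 to 985 ± 8.79, KRT18 from 515 ± 6.54 to 788 ± 1.66 and KRT7 from 1031 ± 15.0 to 1454 ± 50.9 (adjusted p = 2.68e-05, 6.9e-05 and 0.000359). The fourth tested, the urothelial transcription factor GATA3, had values of 1.3, 3.37 and 0.71 in VEC and of 0.16, 0.77 and 0.16 in Q63E, and the groups overlapped (−0.95 on the log2 scale, adjusted p = 0.121).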

How the data were processed

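Total RNA of 6 libraries was sequenced from Illumina TruSeq libraries, per the labels' protocols. Bowtie2, HISAT2 2.1.0 and the build GRCh38.p10 are listed in the submitters' processing notes without their roles. No counting program, annotation or unit is given in the sources used here. From the values, the 58882 rows that the authors deposited for each library were taken as FPKM. Of these rows 649 are assembled loci without a gene name, which hold 0.274% to 0.511% of a library's sum and were not tested. Steps of whole reads were searched for in low values of genes with 1 transcript: at best 24.9% to 26.2% per library lay within 0.1 of a whole number, against 20% without steps. Read depth is therefore unknown, no counting interval is given, and a value of 0 means listed at 0.

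Values were transformed as log2(FPKM + 1), genes with a mean of at least 1 were kept, and limma 3.58.1 in R 4.3.3 (lmFit, eBayes with trend) was fitted on group alone, two-sided, with Benjamini-Hochberg adjustment over 13346 genes. Fold changes on this scale understate those of low genes. The same fit was also run on values simulated from the means and SDs of these data, and its outcome is not given here. Sums, shares and ratios were compared with exact permutation tests. Symbols were paired for 57392 identifiers, and positions came from GENCODE release 29 on GRCh38. The median log2 fold change of the 50 nearest tested genes (25 on each side) describes a gene's surroundings. Alternatives were a pseudocount of 0.1, no filter, a minimum mean of 5, median-of-ratios scaling, the replicate number as a block, no trend, subtraction of the neighbours' median per library, and omission of each library. Promoter windows came from RefSeq.

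Named genes are the 10 members, with RHOC, RHOA and RHOB as a check of the labels. RHOA was also higher in Q63E (0.28 on the log2 scale, adjusted p = 0.00206 in limma). With its neighbours' median of 0.37 subtracted it did not pass (−0.09, adjusted p = 0.133). RHOB was lower (−0.44, adjusted p = 0.0141). For each list, the named genes are the 4 called genes that changed most, plus the 2 of highest mean where fewer than 2 were called. Other genes were named after their values were seen: receptors, VEGFD and defining markers below the minimum for a test, and tested genes that complete a count or family (GIPC1, DPYSL2, HIF1AN, VHL and GATA3). The members and lists were chosen with earlier results of these data known.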

Additional observations from a re-analysis of the deposited data

How the results depend on the processing

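Of 113 refitted values of the 9 tested members, 85 kept their direction and their side of the threshold, 25 kept direction but no longer passed, and 3 changed sign. VEGFC and SEMA3E passed in every fit in which they were tested. The 6 members past the threshold became 3 with no filter (1 of them lower), 3 with a minimum mean of 5 (1 lower), where only 5 members could be tested, and 3 with the replicate number as a block (1 lower), which VEGFA (adjusted p = 0.083), NRP2 (0.0541) and SEMA3A (0.083) did not pass. Of the pathway genes named, PLXNA3 (0.0863), PLXNB1 (0.0849), CRMP1 (0.0558), MICAL2 (0.0504) and PDGFC (0.0782) did not pass with the block either. With 1 library left out, 2 to 4 passed, 1 to 2 higher and 1 to 2 lower. Over all genes the 3383 calls became 2208 with the replicate block, of which 942 were higher. With the neighbours' median subtracted 1206 genes were lower, against 1873. With 1 library left out 2314 to 2621 genes passed, 992 to 1138 higher and 1314 to 1483 lower. With 1 library left out the log2 fold change of VEGFB ran from −0.09 to 0.01, above 0 without VEC replicate 1 (0.01) and VEC replicate 3 (0.0051). That of FURIN ran from −0.14 to 0.00012 (without VEC replicate 2), and that of ROBO4 from −0.05 (without VEC replicate 1) to 0.19. With the neighbours' median subtracted NRP1 stood at 0.06, SEMA3B at −0.0039, PLXNB1 at −0.01 and CRMP1 at 0.09. The cause was not tested. Of 346 refitted values of pathway genes 301 kept direction and side. All 91 refitted sums, shares and ratios moved by less than the spread between libraries. That outcome says little: leaving out 1 of 3 libraries can hardly move a mean further, and a library's scaling factor cancels in shares and ratios. Libraries with the same replicate number did not deviate together (correlations of −0.042, −0.009 and −0.025). With 3 libraries per group this cannot settle whether a number marks a shared culture or day. Median-of-ratios factors lay between 0.9939 and 1.008. An exact permutation test of 3 against 3 cannot go below 0.1, and the unknown read depth limits what low genes such as SEMA3F can show.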

Other observations

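Genes around the family that the rule for naming left out were chosen after their values were seen. SEMA5A, a ligand of PLXNB3, was low throughout, with values of 0.3, 0.29 and 0.43 in VEC and of 0, 0.05 and 0.01 in Q63E. It missed the minimum mean, and with no filter on low values its log2 fold change was −0.39 (adjusted p = 0.0118 in limma). The adhesion gene EPCAM also missed the minimum and had values of 0.29, 0.29 and 0.36 in VEC and of 1.75, 1.39 and 1.41 in Q63E (0.94 on the log2 scale, adjusted p = 0.00608 with no filter). COL18A1, the precursor of the vessel inhibitor endostatin, went from 50.6 ± 0.995 to 51.4 ± 1.21 (SD, n = 3), while its 50 nearest genes on chromosome 21 had a median log2 fold change of −0.29.

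SEMA4D had a value of 62.43 in VEC replicate 2 and of 0.8 to 1.48 in the other 5 libraries. EGLN3, a prolyl hydroxylase gene induced by low oxygen, had values of 1.82, 0.44 and 0.55 in VEC and of 0.22, 10.55 and 2.31 in Q63E, so that a single library held most of the group's sum. Neither gene passed the test (adjusted p = 0.359 and 0.412).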
